A study of Mus musculus with 4 samples.

Results

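The 8 genes described here, Hmgcs1, Idi1, Fdps, Fdft1, Lss, Cyp51, Sc5d and Insig1, belong to cholesterol synthesis and its feedback control. They were chosen by symbol: each gene identifier of the deposited count table, with its version dropped, was matched to the mouse GRCm38 GENCODE M21 annotation, and 8 of 51826 gene rows carried one of these names. All 8 passed the filter on low counts, which kept 21607 genes. The 4 libraries came from mouse breast tumours that are all labelled C3-T+, 2 of the genotype Elf5+/- (HET) and 2 wild type, Elf5+/+ (WT). Elf5 encodes an ETS transcription factor of mammary luminal progenitors and alveolar cells. The labels give neither what drives C3-T nor the animals' age. Digested tumours were sorted with antibodies to CD45, CD31 and TER119 for a fraction enriched in tumour cells. HET 1 and HET 2 have titles with 1 shared number and the endings T1 and T2, whereas the WT titles carry different numbers. The labels do not say whether HET 1 and HET 2 are separate animals. A p-value here covers the spread among 4 libraries, estimated for each gene partly from all genes tested. In HET that spread may lie within 1 animal or be partly technical. The p-value may therefore not measure the spread between animals.

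Cells build cholesterol from acetyl-CoA. HMG-CoA synthase opens the route to mevalonate, which kinases, a decarboxylase and an isomerase turn into isoprenoid units, and these are joined to farnesyl diphosphate, squalene and then the sterol ring. When membrane sterol is scarce, the sensor SCAP carries the transcription factor SREBP2 out of the endoplasmic reticulum, and cleaved SREBP2 switches on nearly every enzyme of the route. INSIG proteins hold SCAP back when sterol is plentiful. Insig1 is itself a target of SREBP and so closes a feedback loop. In the mammary gland the route supplies growing membranes and is active in lactation.

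The promoter windows of Hmgcs1, Insig1 and Sc5d are printed because these 3 members had 3 different orders of the libraries, described in the following paragraphs. The sequences are those of RefSeq on GRCm38.p6, from 250 bases before the RefSeq start up to the base before the first start that RefSeq or GENCODE annotates, read 5′ to 3′ along the gene. Capitals mark a sterol regulatory element (TCACNCCAC or its reverse complement), an E-box (CACGTG) or a CCAAT box (CCAAT or its reverse complement ATTGG), sequences bound by SREBP, by SREBP or other basic helix-loop-helix factors, and by NF-Y, the usual partner of SREBP. No motif overlapped another in these windows.
Hmgcs1, chr13:119690101-119690350, plus strand: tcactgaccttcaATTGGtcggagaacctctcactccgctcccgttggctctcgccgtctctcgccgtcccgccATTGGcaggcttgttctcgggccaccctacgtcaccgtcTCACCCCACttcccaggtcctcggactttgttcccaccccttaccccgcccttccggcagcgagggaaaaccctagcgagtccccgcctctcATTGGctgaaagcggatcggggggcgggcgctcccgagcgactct
Insig1, chr5:28071162-28071362, plus strand: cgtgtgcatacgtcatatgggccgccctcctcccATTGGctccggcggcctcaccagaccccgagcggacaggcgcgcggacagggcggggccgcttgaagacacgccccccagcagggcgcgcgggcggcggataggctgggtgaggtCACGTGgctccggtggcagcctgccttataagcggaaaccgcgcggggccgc
Sc5d, chr9:42264301-42264550, minus strand: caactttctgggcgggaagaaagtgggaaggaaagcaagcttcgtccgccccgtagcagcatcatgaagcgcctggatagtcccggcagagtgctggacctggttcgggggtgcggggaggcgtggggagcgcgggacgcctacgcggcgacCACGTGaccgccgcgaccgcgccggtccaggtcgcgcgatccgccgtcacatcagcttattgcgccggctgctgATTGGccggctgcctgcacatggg

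The RefSeq table held a promoter for 6 of the 8 genes (Hmgcs1, Idi1, Lss, Cyp51, Sc5d and Insig1). Over the 250 bases before the RefSeq start, the element TCACNCCAC was in the Hmgcs1 window alone of these 6, at -137 from the start, against 1.05% of 32851 mouse windows. Each of the 6 windows held a CCAAT box, which 33.8% of all windows held, with 3 in Hmgcs1 and 2 in Idi1. The E-box CACGTG, found in 6.02% of all windows, lay at -101 in Insig1 and at -98 in Sc5d. These matches describe letters in a window. They do not show that a factor bound there.

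Totals lay between 12695132 and 15307939 counts per library, at which a count of 0 allows up to 3 counts, or 0.196 to 0.236 CPM (counts scaled to a common library total, a share of the library's counts). The 8 genes had far more, from 13.6 to 84.0 CPM (library totals adjusted by the trimmed mean of M values, TMM, as for all CPM of genes here). Elf5 stood at 5.39 and 10.6 CPM in HET 1 and HET 2, against 35.6 in WT 1 and 4.70 in the library labelled WT 2. Elf5 was therefore lower in the library labelled WT 2 than in either HET library. This goes against that label, and all directions that follow depend on the label. Elf5 RNA is not a genotype call, however, and the reason for its level in that library was not tested. Epithelial markers were present: Epcam stood at 769 and 613 CPM in HET, against 1040 in WT 1 and 1288 in the library labelled WT 2, and the 6 epithelial markers summed to 2295 and 2131 CPM in HET, against 3527 in WT 1 and 3108 in the library labelled WT 2. Summed macrophage markers (7 of 7 genes tested) were at 762 and 448 CPM in HET, against 715 in WT 1 and 30.3 in the library labelled WT 2. Summed fibroblast markers (7 of 7) were at 3908 and 4903 CPM in HET, against 6515 in WT 1 and 21728 in the library labelled WT 2, above the epithelial sum in each library. Endothelial markers (5 of 5) summed to 270.2 and 483 CPM in HET, against 336 in WT 1 and 66.7 in the library labelled WT 2. Pan-leukocyte markers (5 of 5) summed to 205 and 167 CPM in HET, against 177 in WT 1 and 6.55 in the library labelled WT 2. In the library labelled WT 2 the macrophage marker Adgre1 and the leukocyte marker Cd52 had 1 count each. Tested erythroid markers (3 of 5) summed to 4.74 and 14.99 CPM in HET, against 4.22 in WT 1 and 1.21 in the library labelled WT 2, where Hbb-bs was at 0, and adipocyte markers (3 of 5) to 7.21 CPM or less in each library. The part of these cell types in the results was not tested, and in such bulk samples fewer cells of a type and less RNA per cell cannot be told apart.

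The labels set HET against WT tumours. The first enzyme of the list, Hmgcs1, and the isomerase gene Idi1 had less RNA in each HET library than in either WT library, by log2 fold changes of -0.75 and -0.55, whereas Lss, Sc5d and Insig1 had overlapping groups and log2 fold changes between 0.01 and 0.20. None of the 8 differences passed the test. With edgeR's quasi-likelihood test and a Benjamini-Hochberg adjusted p under 0.05, 0 of 8 members were called, with a background of 0% (0 of 21607 genes) in each direction. DESeq2 and limma-voom called 0 of the 8 as well. At an unadjusted p under 0.05 edgeR had 1 member, Hmgcs1, with a background of 3.78% of all genes in either direction and 1.83% lower in HET. The median log2 fold change of the 8 was -0.16, beside 0.04 over all genes tested, and 5 of 8 lay below 0, against 47.3% of all genes. In a fit of protein-coding genes alone, the median of the 8 was again -0.16, beside -0.04 over all genes of that fit.

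**Figure D1:**
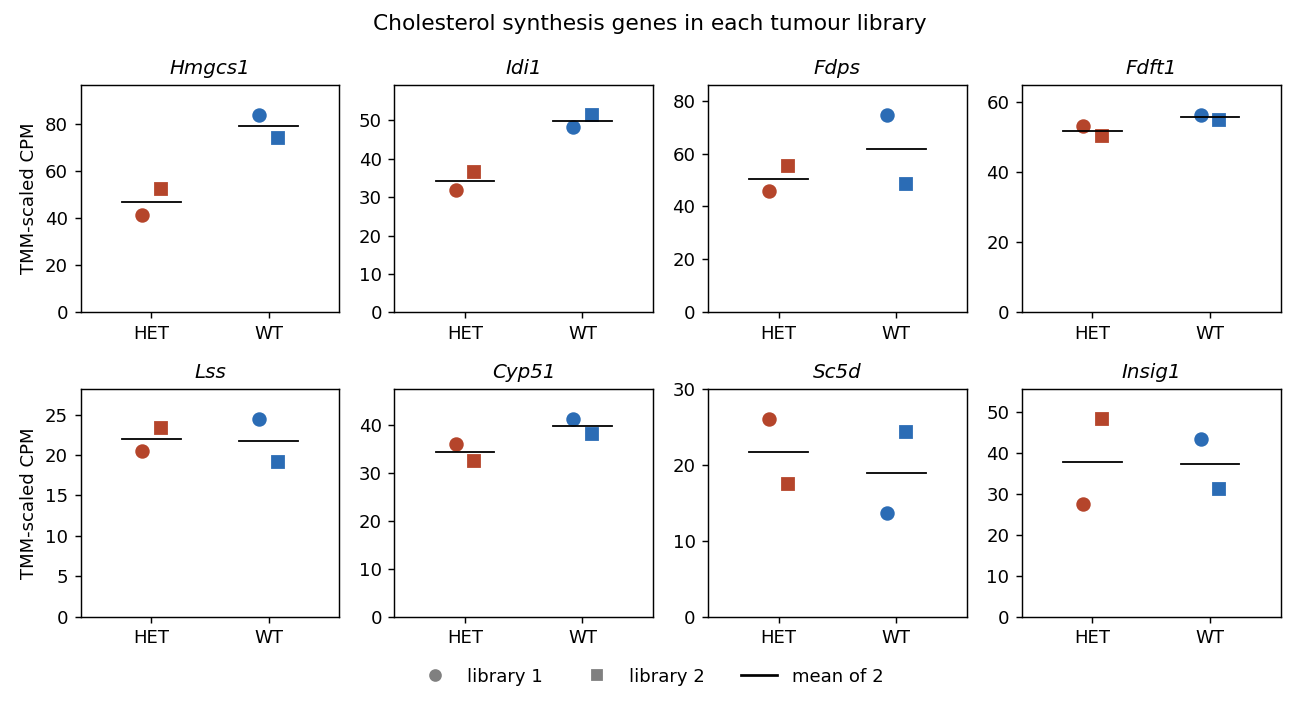
TMM-scaled CPM of the 8 genes in HET (left, red) and WT (right, blue) tumours. Circles are library 1, squares library 2 (in WT, the library labelled WT 2) and lines the mean of 2, with each axis starting at 0. The HET points of Hmgcs1 (41.5 and 52.5) and Idi1 (31.9 and 36.4) lie below both WT points, while those of Sc5d and Insig1 straddle or overlap them.

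Hmgcs1 (ENSMUSG00000093930.1, chromosome 13, 119690379 to 119708260, plus strand) encodes the cytosolic HMG-CoA synthase, which condenses acetoacetyl-CoA with acetyl-CoA. Hmgcs1 transcripts share at least 200 bases at 95% identity or more with 1 other annotated gene. That gene had no row of counts, so its level is not known. Hmgcs1 stood at 41.5 CPM in HET 1 and 52.5 in HET 2, against 84.0 in WT 1 and 74.1 in the library labelled WT 2. Both HET libraries were below both WT libraries. The means were 47.0 ± 7.77 CPM in HET and 79.1 ± 6.97 CPM in WT (SD, n = 2 libraries each). The log2 fold change was -0.75 ± 0.29 (SE), with a 95% interval of -1.46 to -0.04 that is not adjusted for the number of genes. By edgeR the unadjusted p was 0.0415 and the adjusted p 0.986, and with upper-quartile scaling the unadjusted p was 0.0553. Without each library in turn the log2 fold change lay between -0.99 and -0.64, with unadjusted edgeR p of 0.225 without HET 1, 0.0879 without HET 2, 0.0967 without WT 1 and 0.0433 without the library labelled WT 2.

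Idi1 (ENSMUSG00000058258.14, chromosome 13, 8885501 to 8892451, plus strand) encodes isopentenyl-diphosphate isomerase, which interconverts the 2 activated isoprene units. It stood at 31.9 and 36.4 CPM in HET, against 48.3 in WT 1 and 51.5 in the library labelled WT 2. The groups did not overlap here either, and HET was again the lower one. The log2 fold change was -0.55 ± 0.28 (SE), with a 95% interval of -1.23 to 0.14 and an unadjusted edgeR p of 0.0996 (adjusted p = 0.986). It lay between -0.71 and -0.50 without each library in turn. Idi1 counts are uncertain to a degree: 3 other annotated genes share stretches with it, the longest being 684 identical bases in the processed pseudogene Gm13502, which had at most 105 counts in a library, against 491 or more for Idi1.

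Fdps (chromosome 3, 89093588 to 89101959, minus strand) encodes farnesyl diphosphate synthase, whose product is the branch point between sterols and protein prenylation. It stood at 45.8 and 55.2 CPM in HET, against 74.7 in WT 1 and 48.6 in the library labelled WT 2. The high library was WT 1, and the library labelled WT 2 lay between both HET libraries. Fitted over all 4 libraries the log2 fold change was -0.29 ± 0.33 (SE), but 0.05 when WT 1 was left out. Its counts are uncertain, since 5 other annotated genes, 4 of them processed pseudogenes, share at least 200 bases at 95% identity or more, although each had at most 20 counts in a library.

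Fdft1 (chromosome 14, 63145150 to 63179578, minus strand) encodes squalene synthase, the first enzyme committed to sterols. Its range was the narrowest of the 8 relative to its level, at 53.2 and 50.3 CPM in HET, against 56.4 in WT 1 and 55.0 in the library labelled WT 2. Both HET libraries were the lower ones, and the log2 fold change was -0.11 ± 0.27 (SE), with a 95% interval of -0.77 to 0.55. The processed pseudogene Gm6781, with at most 2 counts in a library, shares sequence with Fdft1. Fdft1 transcripts also share 774 bases with the opposite strand of Ctsb, which encodes the protease cathepsin B and stood at 493 and 334 CPM in HET, against 360 in WT 1 and 404 in the library labelled WT 2. The strandedness of the libraries is not given in the sources used here, so reads of this stretch cannot be divided with certainty between both genes.

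Lss (chromosome 10, 76531588 to 76557138, plus strand) encodes lanosterol synthase, which closes the sterol rings. It stood at 20.5 and 23.4 CPM in HET, against 24.5 in WT 1 and 19.1 in the library labelled WT 2. The groups overlapped, with WT 1 highest and the library labelled WT 2 lowest. Its log2 fold change was 0.01 ± 0.33 (SE), with a 95% interval of -0.80 to 0.81, which leaves room for a difference as large as that of Hmgcs1.

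Cyp51 (chromosome 5, 4081145 to 4104746, minus strand) encodes the cytochrome P450 that demethylates lanosterol. It stood at 36.0 and 32.4 CPM in HET, against 41.2 in WT 1 and 38.1 in the library labelled WT 2. Both HET libraries were lower, by a small step: the log2 fold change was -0.21 ± 0.28 (SE), with a 95% interval of -0.90 to 0.47. Once libraries were scaled by the upper quartile, the groups of Cyp51 and Fdft1 overlapped, at log2 fold changes of -0.13 for Cyp51 and -0.02 for Fdft1.

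Sc5d (chromosome 9, 42251595 to 42264256, minus strand) encodes lathosterol oxidase, which introduces a late double bond in the sterol ring. It stood at 26.1 CPM in HET 1 and 17.4 in HET 2, against 13.6 in WT 1 and 24.3 in the library labelled WT 2. Libraries of 1 genotype thus differed more than the genotypes did, with HET 1 and the library labelled WT 2 high. The log2 fold change of 0.20 ± 0.43 (SE) was negative without HET 1 (-0.19) and without WT 1 (-0.16).

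Insig1 (chromosome 5, 28071363 to 28078662, plus strand) encodes the SCAP-retaining protein and was high in other libraries than Sc5d. It stood at 27.4 CPM in HET 1 and 48.3 in HET 2, against 43.4 in WT 1 and 31.2 in the library labelled WT 2. HET 2 and WT 1 were high and HET 1 and the library labelled WT 2 low. Its log2 fold change was 0.02 ± 0.39 (SE), with a 95% interval of -0.92 to 0.96, and it was negative under relative log expression scaling (-0.02) and without HET 2 (-0.50) or the library labelled WT 2 (-0.20).

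In all, 4 of the 8 members (Hmgcs1, Idi1, Fdft1 and Cyp51) had each HET library below either WT library, with a background of 15.9% of all genes tested, and 0 had it above, with a background of 19.6% (35.5% in either direction). With relative log expression scaling the count was 4 again, and with upper-quartile scaling it was 2 (Hmgcs1 and Idi1), with 12.4% of all genes. Against WT 1 alone 6 members were lower in both HET libraries, with a background of 33.6%. Against the library labelled WT 2 alone the count was 4, with a background of 33.6%. Summed over the 8 genes the level was 282 and 316 CPM in HET, against 386 in WT 1 and 342 in the library labelled WT 2.

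Ratios between 2 genes of a library do not depend on how libraries are scaled. These ratios were chosen after the values were seen. The Hmgcs1 count was 0.780 and 1.04 times the Fdft1 count in HET, against 1.49 times in WT 1 and 1.35 times in the library labelled WT 2. Idi1 was at 0.601 and 0.724 times Fdft1 in HET, against 0.856 in WT 1 and 0.937 in the library labelled WT 2. Set against Lss, Hmgcs1 was at 2.02 and 2.24 in HET, against 3.43 in WT 1 and 3.88 in the library labelled WT 2. The groups did not overlap in any of these 3 ratios, and how many other gene pairs do the same was not computed. Hmgcs1 and Idi1 were already lower in both HET libraries on the scaled values, so these ratios are not separate evidence. The Fdft1 counts also carry the uncertainty from Ctsb given before. Hmgcs1 over Idi1 did overlap, at 1.30 and 1.44 in HET, against 1.74 in WT 1 and 1.44 in the library labelled WT 2. With 2 libraries in each group an exact two-sided permutation test cannot give a p below 0.333, so none is given for them.

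**Figure D2:**
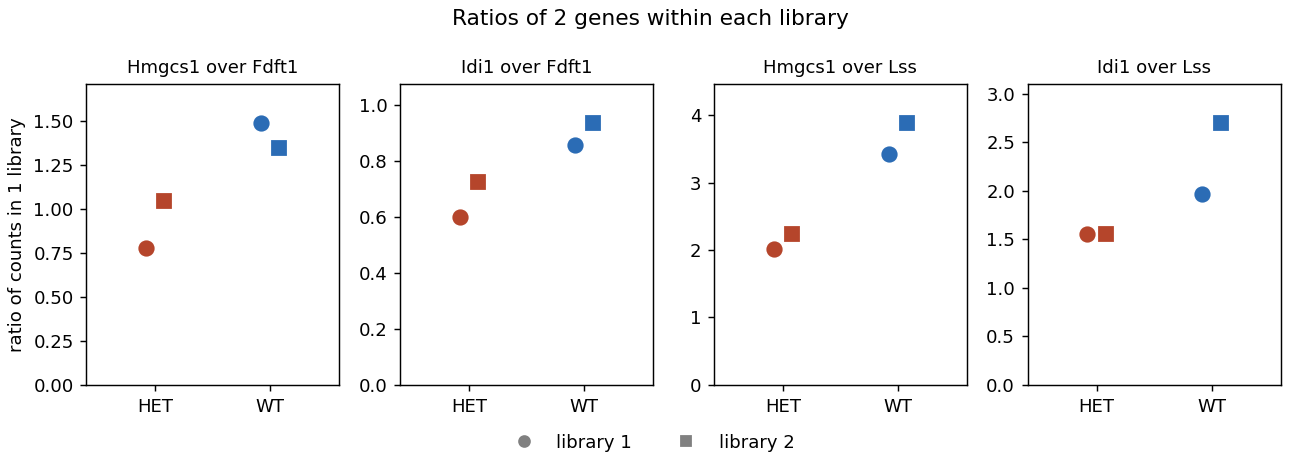
Ratio of the counts of 2 genes within each library (vertical axes, from 0) for HET (left, red) and WT (right, blue) tumours. Circles are library 1 and squares library 2, and each WT point lies above both HET points, for Idi1 over Lss at 1.56 and 1.56 in HET, against 1.97 in WT 1 and 2.70 in the library labelled WT 2.

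Levels of different genes were compared per kilobase of exon. On this scale Hmgcs1 led with a mean of 13.7 ± 4.24 CPM per kilobase (SD over 4 libraries). Fdps followed at 13.3 ± 3.10, Fdft1 at 12.7 ± 0.621, Insig1 at 12.2 ± 3.20, Idi1 at 12.0 ± 2.67 and Cyp51 at 8.36 ± 0.842. The ranges of neighbours in this order overlapped from Hmgcs1 down to Cyp51, and the order of the first 5 changed between libraries. Within each library, however, Cyp51 was below the other 5. Sc5d at 4.18 ± 1.20 lay below Cyp51 in every library, and Lss at 2.03 ± 0.232 lay below Sc5d. The bottom of the order depended on the length used. Lss has 10787 bases of annotated exon in all but 4667 in its longest coding transcript, and per kilobase of the longest coding transcript Lss (4.69) and Sc5d (4.25) changed places while Fdps (40.6) came first.

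A list of 12 further enzymes of the route was uneven as well, and 0 of 12 passed in edgeR, with 0 at an unadjusted p under 0.05. Their median log2 fold change was 0.02, and -0.04 with relative log expression scaling. For 1 of 12, Msmo1, each HET library lay below either WT library, and for 3 of 12 above, with backgrounds of 15.9% and 19.6% of all genes. Msmo1, which encodes a sterol methyl oxidase, stood at 39.8 and 28.5 CPM in HET, against 52.7 in WT 1 and 49.1 in the library labelled WT 2. Its log2 fold change was -0.57 ± 0.31 (SE), and it lay between -0.89 and -0.42 without each library in turn. The 3 enzymes higher in both HET libraries, Nsdhl, Hsd17b7 and Ebp, act on sterols between lanosterol and lathosterol and had log2 fold changes of 0.14, 0.24 and 0.13.

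**Figure D3:**
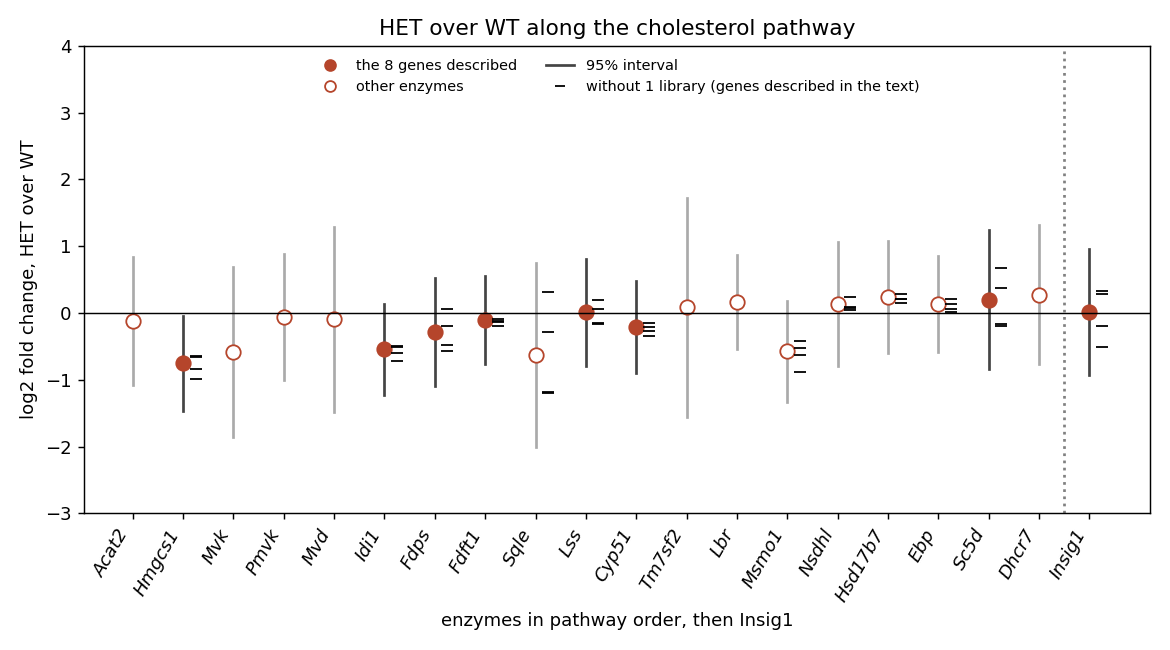
Log2 fold change of HET over WT (vertical axis) for 19 enzymes in pathway order and for Insig1 (right of the dotted line). Filled points are the 8 genes described, open points the 12 other enzymes, vertical lines 95% intervals, and short marks the value without each library in turn for genes that the text gives a fold change for. Hmgcs1 (-0.75), Msmo1 (-0.57) and Idi1 (-0.55) lie lowest among the genes whose groups do not overlap, and each interval but that of Hmgcs1 crosses 0.

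Regulators of the route did not pass either: 0 of 6 were called, 0 of 6 had each HET library below either WT library and 1 had it above (Mbtps2, a protease that cleaves SREBPs, log2 fold change 0.38), with backgrounds of 15.9% and 19.6% of all genes. The median log2 fold change was 0.05, and -0.03 with relative log expression scaling. Srebf2 encodes SREBP2, the activator of cholesterol enzymes. It stood at 81.9 and 104 CPM in HET, against 185 in WT 1 and 101 in the library labelled WT 2. WT 1 was thus the high library, and the log2 fold change of -0.63 ± 0.38 (SE) was -0.13 without it. Srebf1, whose SREBP1 product acts more on fatty acid genes, stood at 91.3 CPM in HET 1 and 244 in HET 2, against 119 in WT 1 and 85.9 in the library labelled WT 2. HET 2 was the high library, and the log2 fold change of 0.71 ± 0.50 (SE) was -0.22 without it.

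Insig2, the second INSIG gene, was high in the libraries where Insig1 was low. It stood at 92.4 CPM in HET 1 and 21.0 in HET 2, against 18.5 in WT 1 and 95.2 in the library labelled WT 2. The Insig1 count was thus 0.297 times that of Insig2 in HET 1 and 2.30 times in HET 2, against 2.35 times in WT 1 and 0.328 times in the library labelled WT 2. Sqle, which encodes squalene epoxidase, was high in the same libraries as Insig1: it stood at 25.8 CPM in HET 1 and 47.7 in HET 2, against 84.4 in WT 1 and 29.5 in the library labelled WT 2. Its log2 fold change of -0.63 ± 0.57 (SE) was 0.32 without WT 1.

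The 6 epithelial markers did not share 1 pattern. Krt8, a keratin of luminal cells, stood at 284 CPM in HET 1 and 519 in HET 2, against 788 in WT 1 and 330 in the library labelled WT 2. Cdh1, which encodes E-cadherin, stood at 518 CPM in HET 1 and 335 in HET 2, against 314 in WT 1 and 645 in the library labelled WT 2. The order of Krt8 was thus that of Sqle, and the order of Cdh1 that of Insig2. Krt18, the partner keratin of Krt8, had the order of Krt8, and the basal keratin gene Krt5 stood at 29.3 CPM in HET 1 and 12.7 in HET 2, against 17.5 in WT 1 and 71.2 in the library labelled WT 2. For Epcam and Krt14 both HET libraries were the lower ones: Krt14 stood at 368 CPM in HET 1 and 123 in HET 2, against 467 in WT 1 and 397 in the library labelled WT 2. Sqle, Insig2, Krt8 and Cdh1 are set beside Insig1 and Sc5d after their values were seen, and the part of epithelial state in these differences was not tested.

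**Figure D4:**
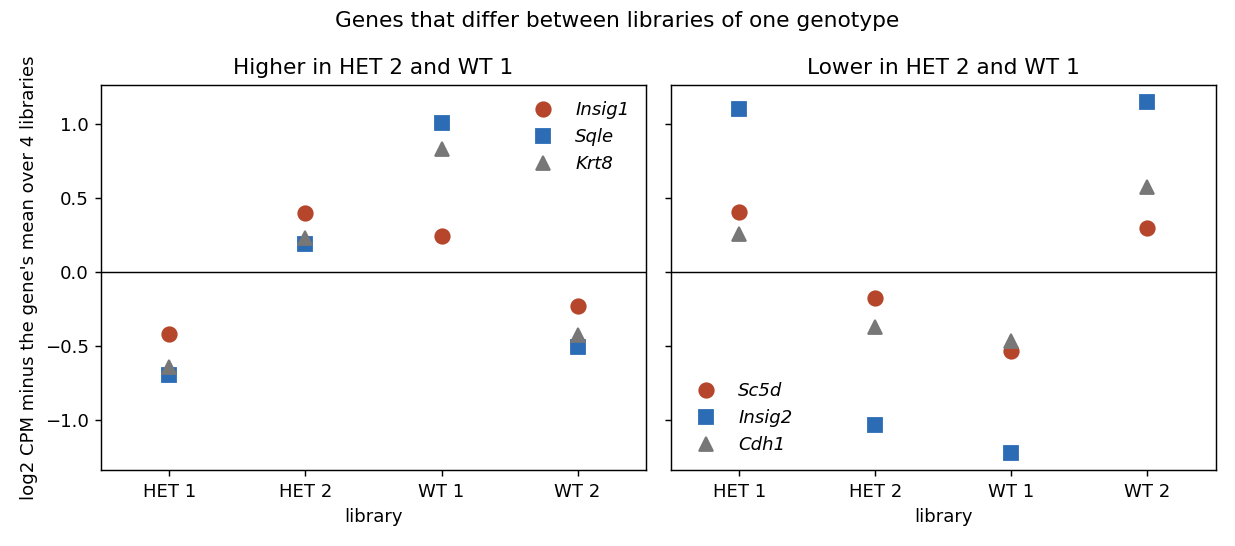
Log2 CPM of 6 genes in each library minus the gene's mean over the 4 libraries (WT 2 is the library labelled WT 2). Left, Insig1, Sqle and Krt8 lie above 0 in HET 2 and WT 1, and right, Sc5d, Insig2 and Cdh1 lie below 0 in these libraries, so these genes separate libraries within a genotype rather than the genotypes.

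Other uses of farnesyl diphosphate were given by 8 genes of prenylation, dolichol, ubiquinone and haem A synthesis. Of these 0 passed in edgeR, with 0 at an unadjusted p under 0.05, and the median log2 fold change was -0.22. Both HET libraries lay below both WT libraries for 3 of 8 (Fntb, Dhdds and Pdss2, named after their values were seen) and above them for 0, with backgrounds of 15.9% and 19.6% of all genes. Fntb, the beta subunit of protein farnesyltransferase, stood at 15.2 and 13.5 CPM in HET, against 20.0 in WT 1 and 22.4 in the library labelled WT 2 (log2 fold change -0.56 ± 0.34, SE). Pdss2, a subunit of the enzyme that makes the ubiquinone side chain, had a log2 fold change of -0.61 ± 0.45 (SE), and Dhdds, a subunit of the dolichol-forming prenyltransferase, one of -0.20.

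Transport, export and storage of sterols were described by 9 genes, of which 9 were tested and 0 passed in edgeR, again with 0 at an unadjusted p under 0.05. Their median log2 fold change was -0.00, and 0.08 with upper-quartile scaling. Abcg1, a cholesterol exporter induced by the oxysterol receptor LXR and abundant in macrophages, was higher in both HET libraries, at 38.8 and 28.7 CPM, against 24.2 in WT 1 and 16.2 in the library labelled WT 2. Its log2 fold change was 0.74 ± 0.36 (SE). The other LXR-induced exporter, Abca1, overlapped between groups, at 148 and 81.9 CPM in HET, against 88.9 in WT 1 and 86.5 in the library labelled WT 2. Soat1, which esterifies cholesterol for storage, was lower in both HET libraries (log2 fold change -0.34 ± 0.31, SE). Thus 1 of 9 genes had each HET library above either WT library and 1 of 9 had it below. The backgrounds were 19.6% and 15.9% of all genes. The macrophage marker sums given for each library stand beside these values, and their part was not tested.

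Outside these lists, the genes whose pattern over the 4 libraries was nearest to the median pattern of the 8 members were Cstf3, Uckl1, BC004004, Lars and Nup205. Likeness was measured as the root-mean-square difference of log2 CPM after each gene was centred on its own mean, among 9893 protein-coding genes at a mean log2 CPM of 3 or more. The differences were 0.0202, 0.0206, 0.0229, 0.0234 and 0.0246, picked as the smallest of all these candidates. Those of the members themselves, which were not picked in this way, lay between 0.0791 for Cyp51 and 0.483 for Sc5d. Cstf3 encodes a subunit of the cleavage stimulation factor of messenger RNA ends, Lars the leucyl-tRNA synthetase and Nup205 a nuclear pore protein. Cstf3, the nearest, stood at 26.9 and 28.1 CPM in HET, against 34.7 in WT 1 and 31.5 in the library labelled WT 2, and its log2 fold change of -0.26 ± 0.29 (SE) did not pass (adjusted p in edgeR 0.986).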

How the data were processed

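The authors deposited estimated counts per gene. Salmon and the build GRCm38.p5 are named, per the submitters' processing notes. All values were whole numbers. Strandedness is not given in the sources used here, nor is the version or annotation used with Salmon. Of 51826 identifiers 51633 matched GENCODE M21 (GRCm38), and 193 did not. No row lacked a gene identifier, and every sample column belonged to the 4 libraries.

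Genotypes were tested in R 4.3.3 with edgeR 4.0.16, using filterByExpr, TMM and the quasi-likelihood F test, genotype as the only term, over all 21607 genes. Standard errors are the log2 fold change divided by the root of F, and 95% intervals use the t distribution. The common biological coefficient of variation was 0.46. Functions were tested on simulated data. The members and lists were chosen with earlier results of these data known. Some further genes of these lists are not reported here, and list counts leave them out. The rule for named genes takes the 8 members and Elf5 always, genes of the pathway lists by value, and the 5 genes of nearest pattern. A list of 9 tissue dissociation genes had 0 calls and a median log2 fold change of 0.21. Alternatives were other scalings and filters, protein-coding genes alone, DESeq2 1.42.0, limma-voom (limma 3.58.1), robust edgeR, an adjusted p under 0.1 and leaving out each library. Floors cover counting error only. Intervals, standard errors and p-values cover the spread of these 4 libraries. edgeR estimates that spread for each gene partly from all genes tested, with 4.08 prior degrees of freedom against 2 from the gene itself. An interval can therefore be wider or narrower than the gene's own 4 libraries alone would give. Transcripts were compared with blastn for near-identical copies.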

Additional observations from a re-analysis of the deposited data

How the results depend on the processing

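Under every alternative run, 0 of the 8 members passed, as did 0 genes of the 4 pathway lists. The count over all genes was 0 except for 324 (133 higher and 191 lower) with no filter beyond 1 count, 134 (43 and 91) by DESeq2, and between 0 and 657 without each library in turn (657 without WT 1, 9 without the library labelled WT 2, 0 without either HET library). With 1 library left in a genotype, its spread is taken to equal that of the other. The members' median log2 fold change of -0.16 was -0.0774 with upper-quartile scaling (which moved the median of all genes to 0.12), -0.25 with no filter beyond 1 count and between -0.34 and -0.12 without each library, lowest without HET 2. The count of members below WT in both HET libraries was 2 with upper-quartile scaling, with a background of 12.4% of all genes. Against a single WT library it was between 4 and 6, with a background of 33.6%. By construction that count could not fall under the 4 found against both WT libraries. This count of members below WT, under each scaling and against each WT library, was added after the data were seen.

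Of the 29 genes followed, 9 turned sign in at least 1 setting, each from a value that did not pass. Under relative log expression, no filter and DESeq2, Lss was at -0.0265, -0.0701 and -0.0266 and Insig1 at -0.016, -0.052 and -0.016. Limma-voom put Insig1 at -0.0201 and Insig2 at 0.0691. Insig2 was at 0.10 with upper-quartile scaling and 0.014 with the filter of 1 CPM in 2 libraries. Without each library in turn Lss lay between -0.16 and 0.20, Insig1 between -0.50 and 0.33, Insig2 between -1.53 and 1.62, Sc5d between -0.19 and 0.68, Fdps between -0.57 and 0.0534, Sqle between -1.20 and 0.32, Srebf1 between -0.22 and 1.21, Abca1 between -0.15 and 0.69 and Elf5 between -2.16 and 0.76. The causes were not tested. No paired analysis was possible because the replicate numbers are names given in accession order. Depth did not limit the 8 members, all above 13 CPM.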
